A study of Mus musculus with 12 samples.

Results

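αTC1 is a mouse cell line grown from a glucagon-producing islet tumour, and the response of this line to GW8510 was read across all genes from 6 of the 12 arrays in the series. The 3 arrays of cells that received GW8510 at 3.3 µM in 0.1% DMSO were set against the 3 arrays of alpha cells given 0.1% DMSO alone. The paper mentions toxicities at 3.3 µM and used a lower dose in its later studies. It also reports a larger share of alpha cells in G2/M with GW8510. The part of either in the results was not tested. GW8510 is a small molecule known as a putative inhibitor of the cyclin-dependent kinase CDK2. The study profiled treated alpha cells to look for a way in which the compound could raise insulin. The paper proposes that a mechanism other than CDK2 inhibition is likely. Cells of both groups were grown in low-glucose medium and lysed on day 5, with medium and compound renewed on day 3. The tumour behind the line was driven by the SV40 large T antigen, which binds p53 and the retinoblastoma protein. Both groups carry it, and the cells are a proliferating tumour line and not islet cells. The paper reports that GW8510 raised the activity of a p53 reporter in these cells. The labels call the 3 arrays of a group biological replicates. They do not say whether the cultures were grown on separate days. The rest of the 12 arrays are of the beta line bTC3, with and without GW8510. The limma fit pooled the spread within the 4 groups of both lines, so the p-values do not measure the spread of the alpha cultures alone.

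Alpha cells of the islet secrete glucagon, a peptide hormone that raises blood glucose. They are excitable cells packed with secretory granules, and they use zinc and copper in granule enzymes, cAMP as a signal for secretion and adhesion molecules to hold their place in the islet. The gene families described here were chosen beyond the p53, replication, mitosis, lysosome and NRF2 lists. They cover receptors and their ligands, adhesion and cytoskeleton, chromatin and RNA, the circadian clock, metals, lipids, sugars and organelles. Some members, such as Gla, Lipa and Timeless, also act in the lysosome or at replication forks. The families are thus not fully separate from those lists, and the overlap was not tested.

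Treated alpha cells had more RNA from the receptor tyrosine kinases Axl and Tek and from many genes of sphingolipid metabolism, of iron handling and of the mitochondrial ribosome. They had less RNA from the metallothioneins Mt1 and Mt2 and from many clock genes, chromatin-modifying enzymes and splicing factors. Of 12255 genes tested, 2470 were higher (20.2%) and 2596 were lower (21.2%) at a limma adjusted p under 0.05, together 41.3%. The rises reached at least 2-fold in 320 genes (2.61%) and the falls in 298 genes (2.43%). In 6300 genes (51.4%) the 3 GW8510 arrays lay entirely above or entirely below the 3 DMSO arrays, and the median log2 fold change over all genes was 0.03. The line is read in bulk, so fewer cells of a type and less RNA per cell cannot be told apart, and each share given for a gene family is to be read against these background shares.

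Glucagon (Gcg) stood at the upper bound of the scale, 20000, on every array of both groups, which leaves its change unmeasured. Ttr (transthyretin) rose from 8351 to 19884 and chromogranin A (Chga) from 5517 to 12512. With GW8510 Ttr lay next to the upper bound, so its log2 fold change of 1.25 is read as a lower limit. The other probe sets of Ttr gave 1.42 to 1.75. Of the alpha-cell transcription factors, Pou3f4 rose from 519.9 to 977, whereas Irx1 and Irx2 fell from 2084 to 1213 and from 1881 to 1377.

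Some markers of other cell types moved with the treatment. Of 8 ductal markers, Krt7 rose from 848 to 2252, Car2 from 889 to 2783 and Muc1 from 49.0 to 60.7. The 5 others did not pass, among them the duct genes Krt19 (79.7 and 82.2), Sox9 (106 and 107) and Cftr (28.4 and 26.8). The 8 summed to 2089 to 2264 per array with DMSO and 5331 to 5613 with GW8510, and Krt7 and Car2 made up most of each sum. Of 9 beta-cell markers 4 were higher, led by Pdx1 (from 70.8 to 374, with 0.54 by its other probe set), and Ins2 rose from 96.8 to 153. Of 8 acinar markers Cela1 alone was higher (from 438 to 643), and of 11 fibroblast markers S100a4 (from 283 to 2893) and Vim (log2 0.36) were. Without S100a4 the 10 other fibroblast markers summed to 689 to 712 with DMSO and 696 to 803 with GW8510. Of 10 markers of delta, PP and other endocrine cells, Hhex (from 45.9 to 93.4) and Pyy (log2 0.23) were higher. The part of these markers in the results was not tested. Ptprc, which all leukocytes carry, stood at 20 with DMSO and 21.2 with GW8510, and the endothelial genes Pecam1 and Cdh5 stood at 44.3 and 42.6, and at 30.3 and 35.1. GW8510 replicate 1 stood apart from the other arrays, with 703 of 22690 probe sets at the lower bound of 20 against 951 to 1038 on the other 5 arrays. Without it the median log2 fold change of all genes was -0.01 and 2321 genes were higher and 2509 lower. A dagger at the first mention of a gene marks one chosen after its values were seen, outside the rule on the size of change that chose the others.

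**Figure D1:**
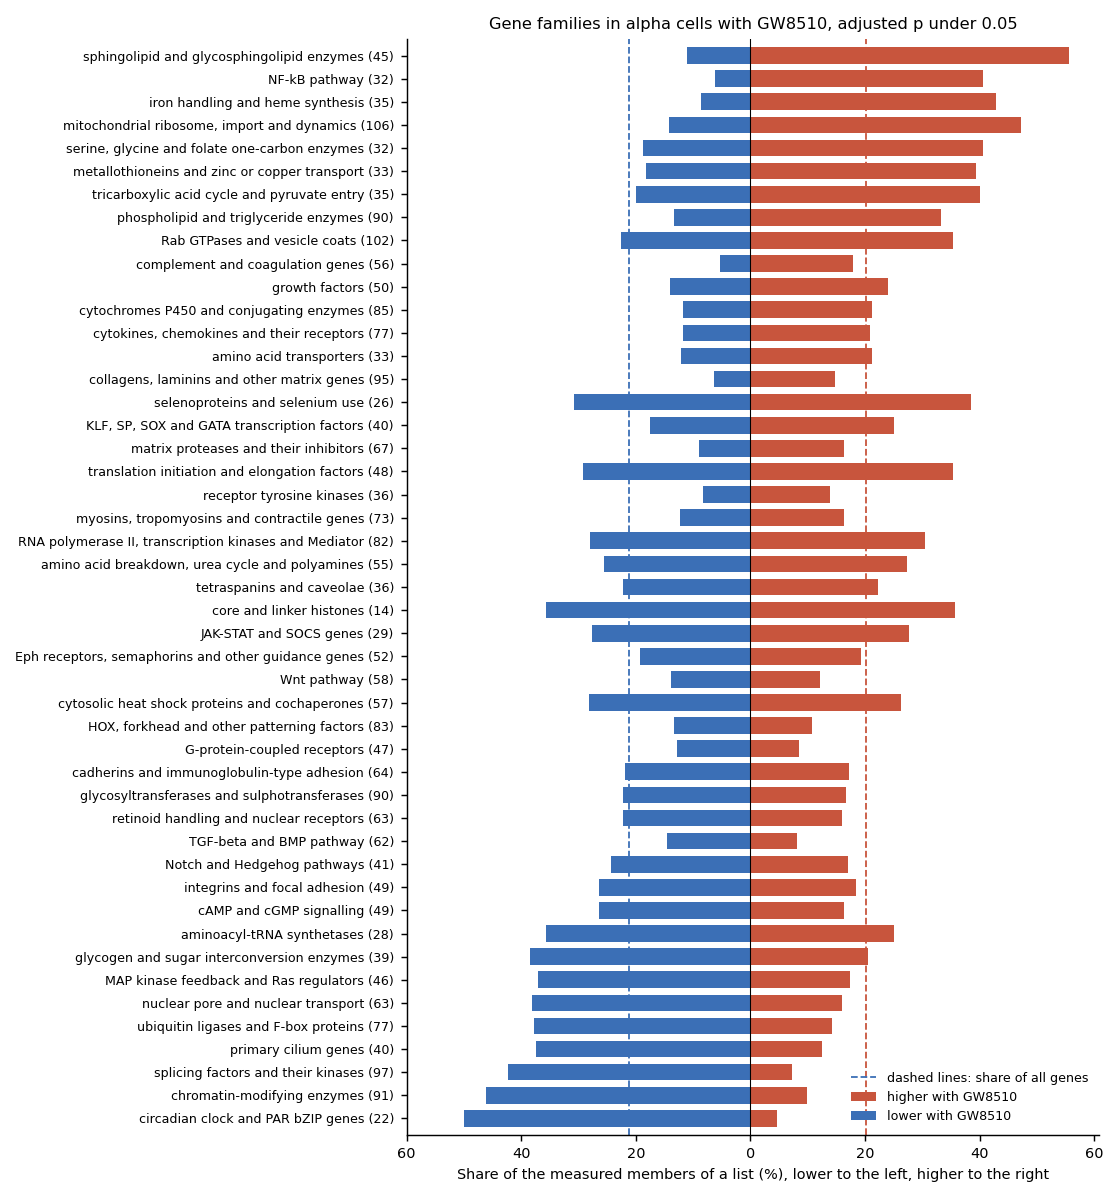
Share of the measured members (%, horizontal axis, number measured in brackets) of 47 gene lists that were lower (blue, left) or higher (red, right) with GW8510 in alpha cells at a limma adjusted p under 0.05. Dashed lines mark the shares over all genes, 21.2% lower and 20.2% higher. Sphingolipid enzymes (55.6% higher) stand at the top, and clock genes (50.0% lower) at the bottom.

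Receptor tyrosine kinases span the membrane and switch on growth and survival signals when a ligand binds. Only 8 of 36 measured members passed the test, 5 higher and 3 lower (22.2% against 41.3% of all genes), but 4 of these moved by at least 2-fold. Axl, the receptor for the ligand Gas6, had intensities of 37.7, 39.8 and 36.9 with DMSO and 364, 324 and 337 with GW8510. The groups were far apart, and Axl rose 8.96-fold (log2 fold change 3.16 ± 0.12 (SE), limma adjusted p = 1.60e-09). Tek, the angiopoietin receptor known from blood vessels, read 22, 21.7 and 20.4 with DMSO and 233, 194 and 232 with GW8510. With DMSO it lay next to the lower bound of the scale, 20, so its log2 fold change of 3.36 is read as a lower limit. The other measured endothelial markers did not follow Tek: of 12 in all, Plvap and Egfl7 fell from 263 to 86.0 and from 489 to 341, and the 9 others did not pass. Other probe sets of Egfl7 gave -0.46 to 0.26. Without Tek, the 11 others summed to 1467 to 1545 per array with DMSO and 1151 to 1397 with GW8510.

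Gas6 and protein S are secreted ligands of the receptor family of Axl, Tyro3 and Mertk, and both were higher as well. Gas6 read 131, 106 and 136 with DMSO and 349, 337 and 344 with GW8510, and protein S (Pros1) read 176, 155 and 173 with DMSO and 359, 376 and 396 with GW8510. Neither gene's groups overlapped (1.47 and 1.17 on the log2 scale, limma adjusted p = 1.22e-05 and 4.55e-08). Mfge8, a secreted bridge that, like Gas6, binds phosphatidylserine on dying cells, rose from 431 to 2902, or 6.72-fold.

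Kit, the receptor for stem cell factor, went the other way, with 329, 323 and 297 with DMSO and 65.9, 73.5 and 73.2 with GW8510. Kit fell by log2 2.16, yet its other probe set gave -0.52. Fgfr3, a fibroblast growth factor receptor, fell from 323 to 98.7 (log2 fold change -1.72 ± 0.11 (SE), limma adjusted p = 1.45e-07), against -0.53 by another probe set. The direction was the same in both probe sets of each gene, but the size was not. Among the lesser changes, the collagen receptor Ddr1† rose from 1788 to 2638 and the neurotrophin receptor Ntrk2† fell from 1535 to 1168, while Egfr† and Alk† rose by log2 0.24 and 0.23. The count of higher members fell to 3 without GW8510 replicate 1 or DMSO replicate 2.

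Growth factors were mixed, with 12 higher, 7 lower and 31 not passing of 50 (median log2 fold change 0.08). The vascular growth factor Vegfc† fell from 149 to 71.6 and Vegfa† from 716 to 377, and Angptl6 fell from 502 to 204, the largest fall of the list. Fgf18 rose from 29.6 to 62.5 and Mst1†, the macrophage-stimulating protein, from 61.8 to 129.6. Genes of axon guidance, which also steer islet innervation and vessels, were split evenly, with 10 of 52 higher and 10 lower. The secreted repellent Sema3e fell from 569 to 222 and netrin 1 (Ntn1) from 955 to 433, whose other probe set gave -0.23, while the semaphorin receptor Plxnb2 rose from 499 to 1166 and ephrin B2 (Efnb2) from 111 to 228, with other probe sets at 0.08 to 1.13.

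**Figure D2:**
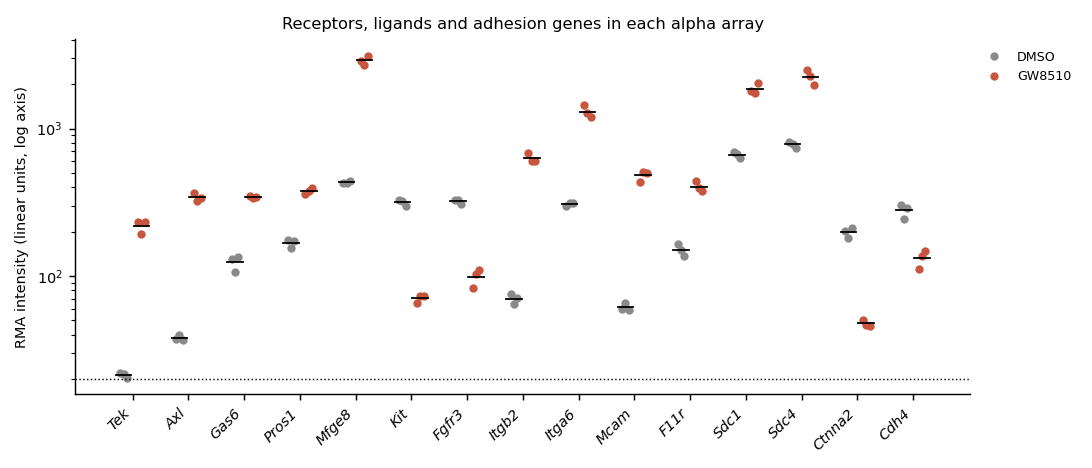
RMA intensity (linear units on a log axis) of 15 surface and secreted genes, with 1 point per array for 3 DMSO (grey) and 3 GW8510 (red) arrays of alpha cells and a black bar at each mean. The dotted line is the lower bound of 20. Tek starts at the bound with DMSO, and Kit, Fgfr3, Ctnna2 and Cdh4† are the genes whose GW8510 points lie below the grey ones.

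G-protein-coupled receptors were seldom called, with 4 of 47 higher and 6 lower (21.3% against 41.3% of all genes). Only 25 of the 47 remained when the dimmest 25% of genes were left out. How far low signal limited the calls was not tested. The lysophosphatidic acid receptor Lpar1 rose from 82.9 to 185 (0.26 to 1.01 by its other probe sets). The adhesion receptor Adgrg1† fell from 240.4 to 165, and the short-chain fatty acid receptor Ffar2 from 141 to 95.2. Downstream, 8 of 49 genes of cAMP and cGMP signalling were higher and 13 were lower. Gnao1, a G-protein subunit that restrains secretion, read 849.8, 866 and 950.0 with DMSO and 449, 410.1 and 464 with GW8510, which is 2.02-fold lower (-0.76 to -0.17 by other probe sets). Pde1c, a calcium-activated phosphodiesterase, fell from 327 to 181, and Pde3a from 167 to 89.8, although its other probe sets gave -0.14 to 0.01. Prkar1b, a regulatory subunit of protein kinase A, rose from 115 to 289, but its other probe sets gave only 0.02 to 0.30.

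In the Notch and Hedgehog pathways, 7 of 41 members were higher and 10 were lower. Notch1, a receptor that is cut on ligand binding to free a transcription factor, had 152, 131 and 149.6 with DMSO and 459, 401 and 484 with GW8510. All GW8510 arrays were above all DMSO arrays, and Notch1 rose 3.11-fold (log2 fold change 1.64 ± 0.10 (SE), limma adjusted p = 7.30e-08). Its other probe set gave 0.88. The transcription factor genes Hey1 and Hes1†, known Notch targets, fell from 1154 to 653 and from 763 to 523. Ptch1, the Hedgehog receptor and target gene, fell from 2103 to 930.0, while its other probe set gave -0.07. The Wnt list had 7 higher and 8 lower members of 58, led by the receptor Fzd6, which rose from 751 to 1949.5. Without DMSO replicate 2 the higher members of the Wnt list were 3. In the TGF-beta and BMP list, 48 of 62 did not pass, the 5 rises were led by Tgfb3 (from 285 to 513) and Ski (from 223 to 383), and the count of rises ran from 3 to 9 over the alternatives.

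NF-kB is a dimeric transcription factor of inflammation that is held in the cytoplasm by inhibitors such as IkB-alpha, whose own gene it switches on. Its list leaned upward, with 13 of 32 members higher (40.6%), 2 lower and 17 not passing, and a median log2 fold change of 0.23. Nfkbia, which encodes IkB-alpha, had 1374, 1429 and 1407 with DMSO and 3531, 2838 and 2825 with GW8510. Its groups did not overlap (log2 fold change 1.12 ± 0.09 (SE), limma adjusted p = 7.97e-07), and other probe sets gave 0.17 to 1.71. Traf4, an adaptor of the TNF receptor family, read 126, 113 and 104 with DMSO and 466, 492 and 525 with GW8510, a rise of 4.33-fold, with 0.69 by its other probe set. The subunit gene Relb rose from 40.0 to 81.1, and Rela† from 873 to 1192. The falls were in Tab2† and Birc2†, which both act upstream of the kinases of the pathway, at log2 -0.33 and -0.21.

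The promoter of Nfkbia is shown because the gene is a classical NF-kB target and rose with its pathway. The sequence is RefSeq's, from mouse build GRCm38.p6, chr12:55492598-55492897 on the minus strand, printed 5′ to 3′ from 250 bases before the start site, with the match to an NF-kB element (GGG and TTTCC with any 2 bases between them, searched on both strands) in capitals.
Nfkbia: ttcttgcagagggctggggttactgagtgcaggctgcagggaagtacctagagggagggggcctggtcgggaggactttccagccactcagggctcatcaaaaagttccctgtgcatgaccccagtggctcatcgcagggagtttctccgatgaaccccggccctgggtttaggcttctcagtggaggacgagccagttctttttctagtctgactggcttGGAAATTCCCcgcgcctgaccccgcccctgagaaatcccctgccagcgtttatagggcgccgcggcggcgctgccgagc
The match lies on the opposite strand at positions 222 to 231 of the 300 bases. Of 32851 promoters of this length, 1.63% hold such a match. By gene, 7 of the 27 NF-kB list members with a promoter in the table held it, against 1.89% of all 27025 genes. A match describes the letters and is not evidence of binding.

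Cytokines and their receptors had 16 of 77 members higher and 9 lower, and 10 higher when the dimmest 25% of genes were left out. The interleukin receptor Il1r1 fell from 3783 to 1808. The chemokine Cxcl10 rose from 102 to 288, and the death receptor Tnfrsf21 from 536 to 1068. Il6st, the shared signalling chain of the interleukin-6 family, rose from 679.9 to 1328. Other probe sets gave 0.54 for Tnfrsf21 and 0.28 to 0.60 for Il6st. In the JAK-STAT list 8 of 29 were higher and 8 lower. The growth hormone receptor Ghr, its transducer Stat5b and the feedback inhibitor Socs2 fell from 1279.9 to 749, from 1189.8 to 637 and from 813 to 437. The other probe set of Stat5b gave 0.06, and those of Ghr gave -0.98 to -0.25. Cish, another STAT5 target, rose from 176 to 253. The median of this list changed sign without GW8510 replicate 1, from 0.10 to -0.04.

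Feedback inhibitors of the MAP kinase cascade and regulators of Ras were lower in 17 of 46 members (37.0%) and higher in 8. Etv5, a transcription factor induced by ERK, fell from 122 to 59.1, although its other probe set gave -0.20. Sos2, an exchange factor that loads Ras with GTP, fell from 914 to 496. The phosphatase Dusp14 rose from 109.6 to 369 and Phlda1 from 832 to 2092. The ERK inhibitors Spred1† and Spred2† fell from 440.3 to 286 and from 1418 to 794, and the phosphatase Dusp1† from 3382 to 1917.

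Integrins are paired receptors for matrix and for other cells. Itgb2, the beta chain of leukocyte integrins, read 75.3, 65.0 and 70.7 with DMSO and 682, 607 and 605 with GW8510. Itga6, the laminin-binding alpha chain found in epithelia, read 299.6, 314 and 313 with DMSO and 1436, 1271 and 1207 with GW8510. Neither gene's groups overlapped, with rises of 8.97-fold and 4.21-fold (limma adjusted p = 1.12e-07 and 1.01e-08). Beside Itgb2, 2 of 11 measured immune markers were higher: Cd68, which is also a lysosomal protein, from 61.6 to 655, and Cd3e from 118 to 149. Without Cd68 the immune markers summed to 618 to 656 per array with DMSO and 649 to 807 with GW8510.

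The heparan sulphate carriers syndecan 1 and syndecan 4 both rose, Sdc1 from 666 to 1862 and Sdc4 from 781 to 2248. Talin (Tln1†), which couples integrins to actin, fell from 348 to 127. Across the integrin and focal adhesion list 9 of 49 members were higher and 13 were lower. Mcam, a melanoma-associated adhesion molecule of the immunoglobulin family, read 59.9, 65.9 and 58.6 with DMSO and 432, 509.6 and 502 with GW8510, and the junctional molecule F11r rose from 150.3 to 403 (0.27 by its other probe set). Nectin4, which joins epithelial cells, rose from 49.7 to 763, with 2.45 by its other probe set against 3.94. Other members fell. The alpha-catenin of neurons, Ctnna2, read 202, 181 and 211 with DMSO and 50.7, 46.5 and 46.1 with GW8510, a fall of 4.14-fold without overlap. Cdh4 (R-cadherin) fell from 279 to 133, Celsr3† from 678 to 294 and Ctnnd2† from 121 to 50.4, and N-cadherin (Cdh2†) fell from 4703 to 2398. In the cadherin and immunoglobulin-type list, 11 of 64 were higher and 14 lower.

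Collagens, laminins and other matrix genes were mostly not called, with 75 of 95 not passing. P4ha2, a proline hydroxylase of collagen, read 1949, 2043 and 1875 with DMSO and 648, 568 and 509 with GW8510, with no overlap (log2 fold change -1.77 ± 0.09 (SE), limma adjusted p = 1.93e-08). Plod1†, a lysine hydroxylase, fell from 696 to 375, and P4ha1† and Plod2† fell from 968 to 669 and from 1646 to 1078, but Plod3† did not pass (from 611 to 607). The heparan sulphate proteoglycan Gpc6 fell from 259 to 64.5 (-0.36 by its other probe set), and Smoc1, a matricellular protein, from 5290.5 to 2499.5. Matrilin 4 (Matn4), a filament-forming matrix protein, rose from 68.2 to 179. Among proteases and inhibitors (11 of 67 higher, 6 lower), Serping1, the inhibitor of complement C1, fell from 876 to 246. The intracellular serpin Serpinb6a rose from 802 to 2023 and the neural serpin Serpini1 from 149 to 295 (0.59 by its other probe set).

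Genes of the contractile cytoskeleton, which lets cells pull and hold their shape, were mostly not called (52 of 73), with the largest rise in Pdlim5 (from 405 to 1014), for which other probe sets gave -0.13 to 1.33, and with non-muscle myosin (Myh9) at log2 0.64. The list of tetraspanins and caveolae was balanced, 8 higher and 8 lower of 36. Pmp22 rose from 499 to 1196 and Flot1 fell from 922 to 465. The tetraspanins Cd82 and Tspan12 fell from 369 to 159 and from 109 to 60.6, and the other probe set of Cd82 gave 0.08.

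Chromatin-modifying enzymes write, erase or read marks on histones or slide nucleosomes. Their list leaned downward: 42 of 91 measured members were lower (46.2%) and 9 were higher (9.89%), with a median log2 fold change of -0.17. Over the alternatives 37 to 44 were lower. Hmgb2, a DNA-bending chromatin protein, is in the list but is not an enzyme. It read 7986, 7693 and 7605 with DMSO and 3171, 3299.8 and 3458 with GW8510 and fell 2.35-fold. Kmt2e, a member of the MLL family, read 1198, 1064 and 1093 with DMSO and 529.8, 579 and 541 with GW8510. Ring1, the ubiquitin ligase core of Polycomb complex 1, fell from 307 to 155, and Kmt2a, a histone H3 methyltransferase, from 406 to 218. In Polycomb complex 2, the methyltransferase Ezh2† fell from 1805 to 1077 and its partner Suz12† from 4112 to 2412. The rises were smaller, the largest being Prmt2† (from 546 to 838), an arginine methyltransferase.

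Of the histone genes only 14 of 67 written could be measured, and the 53 others had no probe set named for them alone. The 14 were split, with 5 higher and 5 lower. The replication-independent variant H2az2 read 6459, 6539 and 6915 with DMSO and 2771, 2897 and 2822 with GW8510, and H2ax, the variant phosphorylated at DNA breaks, read 814, 782 and 875 with DMSO and 293, 374 and 353 with GW8510. Both fell more than 2-fold with no overlap. H2ac19 and H1f2 rose from 438 to 966 and from 663 to 1112; the other probe sets of H1f2 gave -0.02 to 0.86, and histone genes share closely similar sequences, so single members of this family are uncertain.

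Splicing factors leaned the same way as the chromatin enzymes: 41 of 97 were lower (42.3%), 7 were higher (7.22%) and the median was -0.15, with 32 to 49 lower over the alternatives. Ptbp2, a repressor of neuronal exons that is high in neural and endocrine cells, read 1471, 1516 and 1556 with DMSO and 317, 441 and 523 with GW8510. This is a fall of 3.62-fold (log2 fold change -1.86 ± 0.14 (SE), limma adjusted p = 4.33e-07), with -0.96 by the other probe set. Cirbp, an RNA-binding protein induced by mild cold, fell from 619 to 239. Celf4, a neuronal splicing regulator, was the largest rise, from 1727 to 3284. Lesser falls were those of Rbm39† (-0.66) and Elavl1 (-0.66), with -0.24 by the other probe set of Elavl1.

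The transcription machinery itself moved both ways, with 25 of 82 members of the RNA polymerase II, transcription kinase and Mediator list higher and 23 lower. Cyclin-dependent kinases that phosphorylate the polymerase tail were among the rises. Cdk9†, the kinase of the elongation factor P-TEFb, read 1917, 1940.2 and 1944 with DMSO and 2902, 2822 and 2903 with GW8510, and its inhibitor Hexim1† rose from 840.5 to 1261. Cdk7†, the kinase of TFIIH, rose from 872 to 1239. Cdk12 rose from 456 to 801, but its other probe set gave -0.34 and the mean over probe sets was not called (adjusted p = 0.116). The elongation factor Ell2 rose from 550.3 to 1209, and the polymerase subunit Polr2b† from 4235 to 7152. Initiation factors Gtf2a1 and Taf7 fell from 924 to 514 (-0.82 to -0.18 by other probe sets) and from 222 to 132.

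Translation factors changed often but little: 17 of 48 were higher and 14 lower, and no member reached 2-fold. The cap-binding protein Eif4e2 rose from 1304 to 2420.3 (0.11 to 0.98 by other probe sets), and Eif1b, a start-codon selection factor, fell from 3800.5 to 2184. Aminoacyl-tRNA synthetases, which load amino acids onto tRNA, were higher in 7 and lower in 10 of 28, again with no 2-fold change. The alanine enzyme Aars† fell from 3121 to 2209, and the glutamine enzyme Qars rose from 1029.9 to 1653 (-0.00 to 0.58). Genes of the nuclear pore, the lamina and nuclear transport were lower in 24 of 63 members (38.1%) and higher in 10. Tmpo, a lamina-associated protein, fell from 2179.7 to 1063 (-1.26 to -0.17 by other probe sets), and the pore gene Nup98 from 491 to 281, whereas the pore anchor Ndc1 rose from 312 to 614 and its other probe set gave -0.17.

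The medians of the lists of clock, chromatin, splicing, nuclear pore, cilium, ubiquitin and MAP kinase feedback genes stayed below 0, and those of the sphingolipid, NF-kB, iron and mitochondrial lists above 0, under each of the 15 alternatives to the processing, including both other scalings of the arrays.

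**Figure D3:**
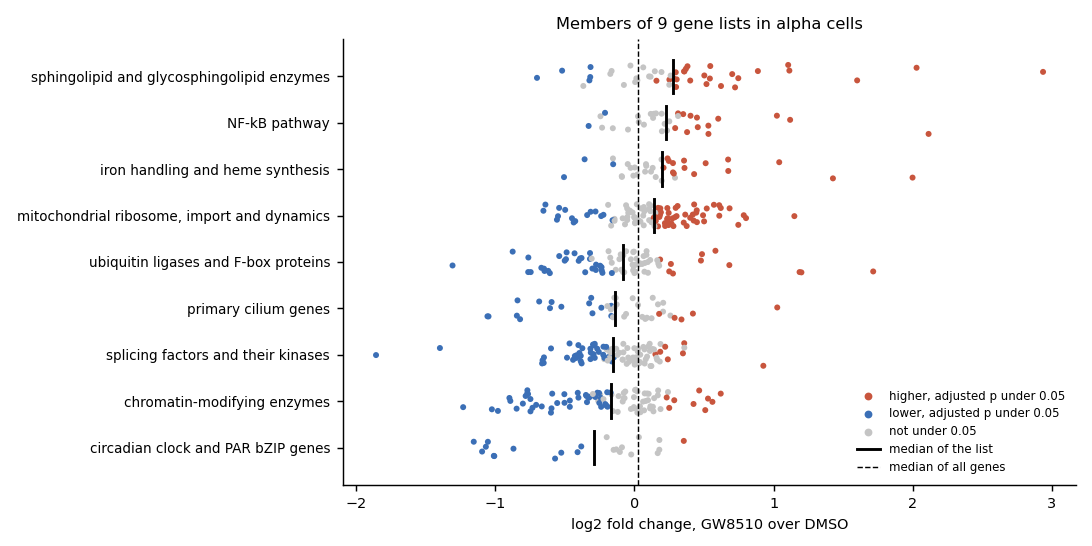
Points are the measured members of 9 gene lists, placed by their log2 ratio of GW8510 to DMSO in alpha cells (horizontal axis) and coloured where the limma adjusted p was under 0.05. Black bars mark list medians, from 0.28 for sphingolipid enzymes to -0.29 for clock genes, and the dashed line the median of all genes, 0.03.

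The circadian clock is a loop in which BMAL1 (Arntl†) and CLOCK switch on Per, Cry and Rev-erb genes, whose products then hold BMAL1 and CLOCK down. Rev-erb and ROR proteins compete for the Arntl promoter, and the PAR bZIP factors Dbp, Tef† and Hlf carry the rhythm to output genes. Of 22 measured members, 11 were lower (50.0%), 10 did not pass and Tef alone was higher (from 879 to 1126), and the median log2 fold change of -0.29 was the lowest of the 47 lists. In 6 members the fall was at least 2-fold, against 2.43% of all genes.

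Nr1d2, which encodes Rev-erb-beta, read 2779, 2642 and 2636 with DMSO and 1190.2, 1252 and 1178 with GW8510. Dbp read 1275, 1272 and 1136 with DMSO and 571, 544 and 609.7 with GW8510, and Rora, the activating counterpart of Rev-erb, 598, 588 and 503 with DMSO and 274, 282 and 249 with GW8510. In each gene every GW8510 array lay below every DMSO array, with limma adjusted p of 9.08e-09, 3.84e-07 and 4.24e-07. The other probe sets gave -0.25 for Nr1d2 and -1.35 to -0.36 for Rora. Timeless, which also acts at replication forks, fell from 907 to 437.

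Arntl itself read 699, 651 and 633 with DMSO and 333, 335 and 316 with GW8510. Bhlhe40†, a repressor that competes with BMAL1 for its sites, read 4158, 4132 and 3797 with DMSO and 2028, 2053 and 1932 with GW8510. Both fell without overlap, by log2 1.01 each. Nfil3†, the repressor that opposes Dbp, fell from 477 to 261, Nr1d1† from 187 to 126 and Cry2† from 501 to 384. Activators and repressors of the loop thus both stood lower at the hour of collection. The labels do not give the hour or say whether cultures were synchronised, and within a group the arrays of each of these genes lay close together.

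RefSeq gives Arntl 2 promoters, and the one with a match is shown because Rev-erb and ROR proteins are known to act on this gene. The sequence, build GRCm38.p6, chr7:113207261-113207560 on the plus strand, is printed 5′ to 3′, from 250 bases before the start site, with the match to TAGGTCA (searched on both strands) in capitals.
Arntl: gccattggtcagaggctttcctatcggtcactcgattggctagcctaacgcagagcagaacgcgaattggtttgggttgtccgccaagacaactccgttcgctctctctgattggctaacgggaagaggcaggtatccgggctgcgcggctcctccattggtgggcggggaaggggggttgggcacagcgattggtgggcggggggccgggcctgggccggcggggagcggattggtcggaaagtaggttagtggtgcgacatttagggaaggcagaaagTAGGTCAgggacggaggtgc
The match is on the printed strand at positions 281 to 287. Such a match occurs in 2.61% of the 32851 promoters. By gene, it was held by Arntl and Nfil3, 2 of the 18 clock list members with a promoter in the table, against 2.97% of all 27025 genes.

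**Figure D4:**
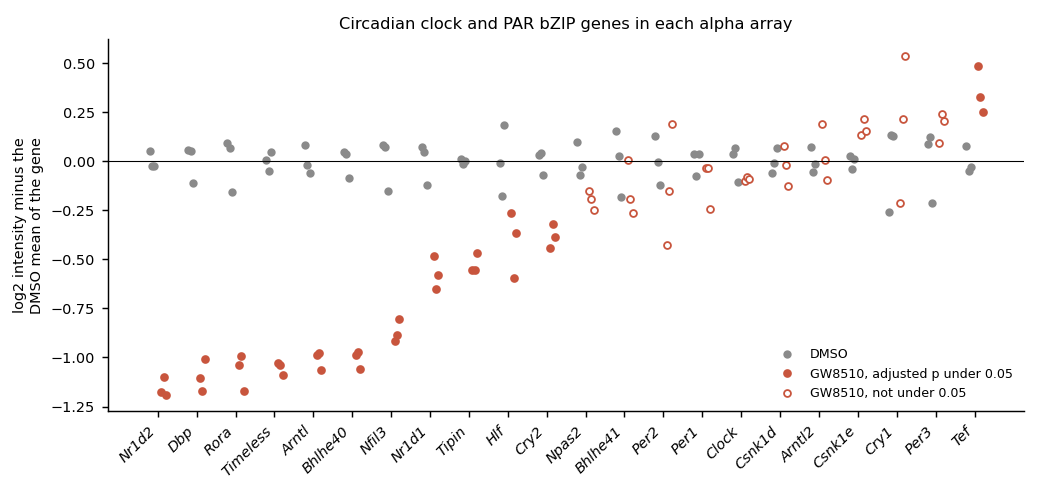
Log2 intensity of each alpha array minus the DMSO mean of the gene (vertical axis) for the 22 measured genes of the clock list, with 3 DMSO (grey) and 3 GW8510 (red) points each, filled where the limma adjusted p was under 0.05. From Nr1d2 to Bhlhe40 the GW8510 points of 6 genes lie near -1, and those of Tef lie above 0.

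Nuclear receptors and retinoid genes were lower in 14 of 63 members and higher in 10, and all 5 changes of at least 2-fold were falls. The glucocorticoid receptor Nr3c1 read 1351, 1346 and 1131 with DMSO and 501, 559 and 576 with GW8510, a fall of 2.34-fold. Nr2c2, an orphan receptor, fell from 727 to 319 (-0.87 to 0.10 by other probe sets), and the retinal reductase Dhrs3 from 379.6 to 159. Among zinc-finger factors, Klf4, a factor of epithelial differentiation and of growth arrest, read 708, 640.1 and 649 with DMSO and 2180.2, 2109 and 2160.4 with GW8510, which is 3.23-fold higher. Klf15, known as a glucocorticoid target, fell from 654 to 299, and Sox4, a factor of islet development, rose from 3198 to 5338 (0.04 to 0.85 by other probe sets). The KLF, SP, SOX and GATA list had 10 higher and 7 lower of 40. Homeobox and forkhead factors were mostly not called (63 of 83), with Foxc1 higher (from 483 to 1157) and the repressors of epithelial genes Zeb1 and Zeb2 lower (from 1355 to 717 and from 188 to 95.1), the other probe set of Zeb1 giving -0.05.

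Metallothioneins are small proteins that bind zinc and copper and are induced by these metals. Mt2 read 3179, 3345 and 2756 with DMSO and 688, 729 and 741 with GW8510, a fall of 4.29-fold (log2 fold change -2.10 ± 0.08 (SE), limma adjusted p = 1.56e-09). Mt1 read 8115, 8520.1 and 7698 with DMSO and 3659, 3860.1 and 3682 with GW8510 and fell 2.17-fold, while its other probe set gave -0.11. In both genes the groups were apart on every array. Several copper genes rose. The copper chaperone of superoxide dismutase, Ccs, read 553, 537 and 553 with DMSO and 1266, 1298 and 1344 with GW8510. Atox1, which hands copper to the secretory pathway, rose from 1799 to 4274, with 0.03 to 1.19 by other probe sets, and the copper importer Slc31a1† rose from 272 to 581. The copper exporter Atp7a† rose from 204 to 347. Over the whole list 13 of 33 members were higher (39.4%) and 6 were lower. Mtf1†, the factor that senses zinc, and the zinc exporter Slc30a1† rose by log2 0.40 and 0.39.

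The promoters of Mt1 and Mt2 are shown because the genes lie side by side and fell together. RefSeq places them at chr8:94178839-94179138 and chr8:94172368-94172667, both on the plus strand of GRCm38.p6. They are printed 5′ to 3′ from 250 bases before each start site, with matches to the metal response element core, TGCACNC or TGCGCNC on either strand, in capitals.
Mt1: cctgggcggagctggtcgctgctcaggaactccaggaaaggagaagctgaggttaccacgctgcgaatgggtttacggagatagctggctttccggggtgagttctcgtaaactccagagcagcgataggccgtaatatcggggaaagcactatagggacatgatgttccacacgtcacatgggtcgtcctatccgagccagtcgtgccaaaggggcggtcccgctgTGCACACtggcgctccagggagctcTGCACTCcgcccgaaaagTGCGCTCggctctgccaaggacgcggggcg
Mt2: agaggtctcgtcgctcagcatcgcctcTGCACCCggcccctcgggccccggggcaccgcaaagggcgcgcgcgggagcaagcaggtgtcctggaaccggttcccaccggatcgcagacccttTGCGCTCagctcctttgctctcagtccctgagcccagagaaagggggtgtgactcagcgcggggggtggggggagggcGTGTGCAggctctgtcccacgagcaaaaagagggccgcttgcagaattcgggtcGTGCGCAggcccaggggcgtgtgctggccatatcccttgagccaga
Mt1 holds 3 matches, all on the printed strand. Mt2 holds 4, of which 2 are on the opposite strand. These letters are common, since 25.7% of the 32851 promoters hold at least 1 match. By gene they occur in 17 of the 28 members of the metal list with a promoter in the table, against 28.2% of all genes, and Slc30a1 and Atp7a, which rose, are among the 17.

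Iron genes leaned upward, with 15 of 35 higher (42.9%), 3 lower and 17 not passing (median 0.20). Hfe, the iron-sensing partner of the transferrin receptor, read 82.8, 85.8 and 95.2 with DMSO and 357, 337 and 359 with GW8510, 4.0-fold higher, with 0.82 by its other probe set. Ferroportin (Slc40a1), the only known iron exporter, read 327, 309 and 331 with DMSO and 901, 839 and 861 with GW8510. Tfrc, the transferrin receptor that brings iron in, read 5116, 4996 and 5202 with DMSO and 10249, 10463 and 10789 with GW8510. Importer and exporter thus rose together, by log2 1.04 and 1.43, and their groups did not overlap. The steps of heme synthesis moved the same way in Alas1, the first and rate-limiting enzyme (from 348 to 556), in Cpox† (from 301 to 483) and in Fech† (from 1050.1 to 1498), but Ppox† fell from 400.4 to 282. Selenoproteins were split, with 10 of 26 higher and 8 lower. Msrb1, a methionine sulphoxide reductase, rose from 335 to 706, and the glutathione peroxidases Gpx3† and Gpx1† from 168 to 349 and from 3465 to 6676. Txnrd2†, the mitochondrial thioredoxin reductase, fell from 967 to 499.6.

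Sphingolipids are built on ceramide, which cells make from serine and palmitate, decorate with sugars and break down in the lysosome or through sphingosine 1-phosphate. No other list had a larger share of higher members: 25 of 45 were higher (55.6%), 5 were lower and the median was 0.28, with 21 to 26 higher over the alternatives. Smpdl3b, a membrane-bound phosphodiesterase, read 118, 112 and 108 with DMSO and 723, 978 and 908 with GW8510, 7.65-fold higher. Sgpl1, the lyase that removes sphingosine 1-phosphate for good, read 437, 379.9 and 356 with DMSO and 1327, 1696 and 1778 with GW8510. Gla, the alpha-galactosidase missing in Fabry disease, read 147, 141 and 128 with DMSO and 375, 437 and 451 with GW8510. These groups did not overlap, although the other probe sets of Sgpl1 and Gla gave 1.30 and 0.40. Synthesis genes rose with those of breakdown: the ceramide synthase Cers4 rose from 123 to 269, and Sptlc1† and Sptlc2†, which form the enzyme of the first step, from 507 to 851 and from 486 to 803. The falls were led by B4galt6†, a lactosylceramide synthase (from 1994 to 1229), and Cerk†, ceramide kinase (from 2142 to 1496). Some members (Gla, Galc†, Neu1†, Asah1†) act in the lysosome, a group of genes that is not described further here.

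Enzymes of phospholipids and triglycerides were higher in 30 of 90 members (33.3%) and lower in 12. The largest rises of this list belonged to genes of the lipid droplet, the store of fat in a cell. Plin2, which coats lipid droplets, read 1067, 1134 and 1078 with DMSO and 2818, 2665 and 2589 with GW8510. Abhd5, the activator of the lipase Pnpla2, read 316, 305 and 295 with DMSO and 829.6, 1081 and 1069.6 with GW8510, and seipin (Bscl2), which helps droplets form, rose from 1288 to 3491. Each was more than 2-fold higher with no overlap. The lipase of the lysosome, Lipa, rose from 251 to 563. Hilpda†, an inhibitor of the same lipase Pnpla2, fell from 1039.7 to 474, and lipoprotein lipase (Lpl†) from 9316 to 5690.1. Glycosyltransferases and sulphotransferases were balanced (15 of 90 higher, 20 lower), with the galactosyltransferase B4galt1 lower (from 812 to 333).

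Glycogen is built from glucose 1-phosphate by a synthase and a branching enzyme, and several genes of this path fell. Ppp1r3c, which brings protein phosphatase 1 to glycogen, fell from 622 to 90.3 (-0.80 by its other probe set). Gbe1, the branching enzyme, read 679, 617 and 517 with DMSO and 143, 159 and 179.8 with GW8510. Pgm1†, which makes glucose 1-phosphate, fell from 3023 to 1191, glycogen synthase Gys1† from 1029 to 515 and the glycogen-binding protein Stbd1† from 1893 to 669. Gyg† (glycogenin), the primer of the particle, rose from 353 to 741. Outside glycogen, Fbp1, the fructose bisphosphatase of gluconeogenesis, read 1883, 1827 and 1835 with DMSO and 8878, 8565 and 8829.6 with GW8510, 4.74-fold higher (log2 fold change 2.24 ± 0.05 (SE), limma adjusted p = 6.20e-11), and Gnpda1, which returns glucosamine 6-phosphate to glycolysis, rose from 439 to 1414. Over the list 15 of 39 members were lower (38.5%) and 8 were higher.

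**Figure D5:**
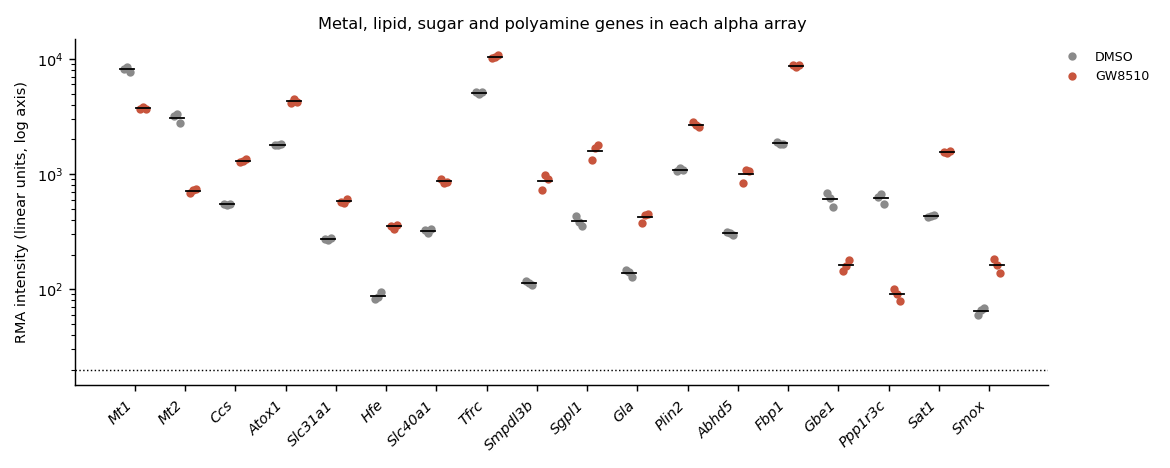
RMA intensity (linear units on a log axis) of 18 metal, lipid, sugar and polyamine genes, with 1 point per array for 3 DMSO (grey) and 3 GW8510 (red) arrays of alpha cells and a black bar at each mean. The dotted line is the lower bound of 20. Mt1, Mt2, Gbe1 and Ppp1r3c lie lower with GW8510, and the 14 other genes lie higher.

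Of genes of the tricarboxylic acid cycle and pyruvate entry, 14 of 35 were higher (40.0%) and 7 lower. Idh1, the cytosolic isocitrate dehydrogenase that makes NADPH, read 2371, 2339 and 2409 with DMSO and 7810.2, 7456 and 8265 with GW8510, a rise of 3.30-fold. Pdk1, the kinase that shuts pyruvate dehydrogenase, fell from 2361 to 877, and the mitochondrial phosphoenolpyruvate carboxykinase Pck2 from 1175 to 482. Within the cycle, citrate synthase Cs† rose by log2 0.34 and Sdha†, a subunit of succinate dehydrogenase, by 0.34. In one-carbon metabolism 13 of 32 were higher (40.6%) and 6 lower. The folate oxidase Aldh1l1 rose from 109 to 1679 (0.61 by its other probe set). Psph, the last enzyme of serine synthesis, fell from 1927 to 992, and Gldc, which cleaves glycine, rose from 77.5 to 145.

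Polyamines, small cations needed for growth, are taken apart by the enzymes Sat1 and Smox. Sat1 read 421, 435 and 441 with DMSO and 1569.5, 1526 and 1581 with GW8510, and Smox read 60.0, 66.1 and 68.8 with DMSO and 185, 163 and 139 with GW8510. Both rose without overlap, 3.6-fold and 2.49-fold. Odc1†, the first enzyme of polyamine synthesis, rose too (from 4175 to 6547), while Azin1†, which protects it from breakdown, fell from 2456 to 1527. Ddc, which makes dopamine and serotonin and marks endocrine cells, read 12581, 12585 and 13354 with DMSO and 5235, 5304 and 5374 with GW8510. The branched-chain enzymes Bckdha† and Bckdhb† fell from 836 to 543 and from 1043 to 732. The whole list of amino acid breakdown, urea cycle and polyamines was nearly even, 15 higher and 14 lower of 55. Among amino acid transporters (7 of 33 higher, 4 lower), the mitochondrial glutamate carrier Slc25a22 rose from 696 to 1608 and the creatine transporter Slc6a8 from 314 to 685.

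Cytochromes P450 and conjugating enzymes were mostly not called (57 of 85). Apart from Ephx1, the largest rises were Cbr2, a carbonyl reductase (from 47.2 to 447), Mgst1, a microsomal glutathione transferase (from 27.6 to 141, with 0.11 by its other probe set), and Gstm2 (from 24.3 to 108). With DMSO both Mgst1 and Gstm2 lay near the lower bound of the scale, 20, which limits the size of their rises. The mu-class transferases have closely similar sequences, so Gstm2 is uncertain. Falls of at least 2-fold were found in the oxysterol hydroxylase Cyp7b1† (from 344 to 136), in Gstz1†, which acts in tyrosine breakdown (from 1845 to 795), and in Gstk1† (from 318 to 155).

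Mitochondrial ribosome, import and dynamics genes formed the largest list, 106 measured members. Of these 50 were higher (47.2%), 15 were lower and the median was 0.14, with 40 to 58 higher over the alternatives. Shifts were small, and Mrps25, a small-subunit protein, alone passed 2-fold, from 633 to 1405 (0.49 to 0.90 by other probe sets). Polrmt, the RNA polymerase of mitochondria, rose from 639 to 1113, and Mrpl35 from 1083 to 1868 (0.29). Rab GTPases and vesicle coats had 36 of 102 higher and 23 lower, none at 2-fold, with the COPII coat gene Sec23b higher (from 2235 to 4034) and the adaptor subunit Ap1s2 lower (from 2906 to 1561), the latter with 0.01 to 0.11 by other probe sets.

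Primary cilium genes were lower in 15 of 40 members (37.5%) and higher in 5 (median -0.14). Ift140, of the transport complex that returns cargo from the tip, read 609, 594 and 622 with DMSO and 270.1, 317 and 292 with GW8510. Ttc8, a subunit of the Bardet-Biedl coat, fell from 3054 to 1478. Ift27 went against the rest and read 1670.0, 1738 and 1709 with DMSO and 3284, 3496 and 3649 with GW8510. Ubiquitin ligases and F-box proteins were lower in 29 of 77 (37.7%) and higher in 11. Nedd4l, the ligase of the epithelial sodium channel, fell from 1059.5 to 428 (-0.21 by its other probe set). Fbxw7, which marks cyclin E and Myc for breakdown, read 265, 292 and 273 with DMSO and 926, 894 and 907 with GW8510, a rise of 3.29-fold, and Rnf128 rose from 987 to 2267. Cytosolic heat shock proteins were even, 15 higher and 16 lower of 57, with the small heat shock protein Hspb8 higher (from 616 to 1542, 0.34 to 1.07 by other probe sets) and Dnajb4 lower (from 566 to 242).

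Complement and coagulation genes were seldom called (10 of 56 higher, 3 lower, and 6 higher without GW8510 replicate 1 or DMSO replicate 2). C1qa, a chain of complement C1q, fell from 306 to 84.4, and the membrane inhibitor Cd59a rose from 194 to 349.

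Several of the 30 largest rises and 30 largest falls among the genes tested belong to none of these families. Tff3, a trefoil peptide secreted by mucous and some endocrine cells, read 191, 200.4 and 202 with DMSO and 1659, 1578 and 1502 with GW8510. Ckmt1, the mitochondrial creatine kinase, read 291, 277 and 281 with DMSO and 2084, 2058 and 2259 with GW8510, and its other probe set gave 2.62. Dcxr, a xylulose reductase, rose from 363 to 2699 and Enc1, a kelch protein of the actin network, from 260.4 to 1921. Other probe sets of Enc1 gave 1.1 to 2.7. The AMP deaminase Ampd3 read 22.4, 26.7 and 23 with DMSO and 151, 132 and 169 with GW8510, near the floor of the scale with DMSO. Frrs1, a ferric reductase-like protein, rose from 73.2 to 489, the sodium channel beta subunit Scn3b from 68.3 to 445 (0.71), the phosphatase Ptprv from 82.2 to 528 and the T-cell co-stimulator Cd80 from 74.4 to 461 (0.11 to 2.17).

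The falls outside these families were in genes of varied function. Cadps, which primes dense-core granules for release, read 493, 477 and 462 with DMSO and 83.5, 112 and 129 with GW8510. Hpca (hippocalcin), a neuronal calcium sensor, read 734, 669 and 759.9 with DMSO and 179.8, 175 and 149.7 with GW8510, with -2.07 by its other probe set. Cacng5, an auxiliary channel subunit, fell from 909 to 145 (-0.32), the neural adhesion genes Ntm and Astn1 from 349.9 to 73.0 (-0.92) and from 428 to 92.9, and the neuronal zinc-finger factor Myt1l from 841 to 184 (-0.17). Adm, the vasodilator adrenomedullin, fell from 436 to 98.7, Tmem100, a membrane protein of vessels, from 1406 to 326, and the methionine sulphoxide reductase Msra from 219 to 47.0. The actin-nucleating formin Fhod3 fell from 281 to 58.4, and the oxidoreductase Wwox from 308 to 76.4 (-0.43 to -0.07).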

How the data were processed

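The deposited values are intensities from Affymetrix Mouse Genome 430A arrays, made by the authors with RMA per the labels (version not given in the sources used here), on a linear scale that runs from 20 to 20000. They were turned into log2 here without a pseudocount. Of 22690 probe sets, 20380 carry 1 gene symbol, 691 several, 1555 none and 64 are controls, and 330 of those with 1 symbol stood at a bound on all arrays. Each of 12255 genes was read from its brightest probe set over the 12 arrays, which was a choice among several for 4854 genes. The names are those of GEO's platform annotation. Array number limits the precision, and the median SE of a log2 fold change was 0.08.

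Group means of all 12 arrays were fitted in limma 3.58.1 (R 4.3.3, empirical Bayes), with Benjamini-Hochberg adjustment over all genes and a threshold of 0.05 for GW8510 over DMSO in alpha cells. The paper names no test for the arrays. The script was tested on simulated data. No list was tested. The 47 family lists and 8 marker lists (3204 symbols written, 2676 measured) and the genes described were chosen with earlier results of these data known. Named genes are up to 4 members of each family list with the largest change at adjusted p under 0.05 and no overlap between groups, plus the 30 largest rises and 30 largest falls. The source field of replicates 2 and 3 of the GW8510 group gives another compound number, while their titles, descriptions and compound field give GW8510. Promoters are RefSeq's (GRCm38.p6), matched by symbol. Some genes, and 1 list that named them, are not reported here.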

Additional observations from a re-analysis of the deposited data

Results flagged for a closer look

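Probe sets that could not be assigned to 1 gene were left out of the comparison and were fitted apart in limma. Of 1467 probe sets with no symbol here and off the bounds, 349 passed at an adjusted p under 0.05 (23.8%), 167 higher and 182 lower with GW8510, with log2 fold changes from -2.32 to 2.52. Of 658 probe sets with several symbols, 226 passed (34.3%), 110 higher and 116 lower, with log2 fold changes from -5.07 to 7.07. These signals lie outside the gene table. The transcripts behind the probe sets with no symbol were not identified. Those with several symbols are named by the annotation, but which of the genes gave the signal was not identified. Their extremes lie beyond all of the 30 largest rises and 30 largest falls, which leave them out.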

How the results depend on the processing

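The 2470 higher and 2596 lower genes became 2396 and 2526 with the alpha arrays alone, 2832 and 2548 with each array centred on its median, 2650 and 2841 after a further quantile normalization, 2397 and 2576 for the mean of a gene's probe sets, and 2369 and 2638 without the dimmest 25% of genes. With 1 array left out they ran from 2127 to 2492 higher and from 2292 to 2509 lower. Same-numbered arrays did not deviate together (r = 0.02, 0.02 and -0.03 for replicates 1, 2 and 3). With 3 arrays per group this cannot show whether the cultures were paired, and the paper calls its vehicle controls matched. The main fit ignored any pairing, and a replicate block gave 2384 higher and 2442 lower. Of 3422 values of the 229 named genes under these alternatives, 3421 kept their direction and their call, none reversed, and Cdk12 lost its call for the mean of its probe sets. The 229 were chosen for large, called changes on these same arrays, so this outcome was likely beforehand and is no independent support. Genes marked with a dagger are not among the 229. Medians of the 55 lists kept their sign in 746 of 825 cases, with shifts of -0.15 to 0.24. Without GW8510 replicate 1 the medians of the integrin list (0.06) and the protease list (0.07) became -0.05 and -0.04, and that of the selenoprotein list (0.05) became -0.03 without the dimmest 25% of genes. The causes were not tested. Probe sets at 20 or 20000 give only a limit.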
